A study of Homo sapiens with 2 samples.

Results

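The enzymes of glycolysis and of the pentose phosphate pathway, with the sugar transporters and kinases that feed and steer them, were followed in a radiation-adapted derivative of MHH-ES-1 and in the wild-type line. MHH-ES-1 is an established Ewing sarcoma cell line. Members were all genes on a list of 31 symbols, and every array probe that the platform annotation assigns to 1 of them was taken. Of the 31 genes, 29 had a named probe (53 probes), out of 20046 genes with one on the array. SLC16A1 and SLC16A3, which encode lactate exporters, had no named probe, so their expression was not analysed here.

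The 2 groups held 1 Illumina bead array each. The radiation-adapted sample was total RNA of MHH-ES-1 cells whose short label reads 4 Gy, and the other sample was total RNA of wild-type MHH-ES-1 cells with no dose in its label. How the dose was given, how long after it RNA was taken, and whether the adapted line is a clone or a pool are not given in the sources used here. A probe was called detected at a detection p-value under 0.01, and detected probes made up 37.4% of the 47323 on the radiation-adapted array and 34.3% on the wild-type array. All 7 of the Ewing sarcoma markers with a named probe (CCND1, CD99, EWSR1, FLI1, NKX2-2, PRKCB and STEAP1) were detected on both arrays. Of 6 leukocyte markers, 4 were detected in radiation-adapted and 3 in wild-type cells. The signals of the 6 sum to 1401.4 and 12371.3 intensity units over each gene's brightest probe on each array. Nearly all of the wild-type sum came from ITGB2 (641.7 units in radiation-adapted and 11516.9 units in wild-type cells, at different probes). Of the other 5, PTPRC and CD3E were detected on neither array. CD79A and LYZ were detected on both, at dim signals, 2.56-fold and 2.47-fold lower in radiation-adapted cells at their main probes. CD14 was detected in radiation-adapted cells only, at a level that gives no fold. Among fibroblast markers, 3 of 6 were detected on each array, with summed signals of 2925.1 and 1482.8 units in the same order, but of these only COL1A1 was detected on both. COL1A1 was 7.92-fold higher in radiation-adapted cells and THY1 at least 27.8-fold higher, whereas DCN was at least 11.6-fold and LUM at least 5.66-fold lower. The part of any of these lists in the ratios below was not tested.

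Glycolysis splits glucose into pyruvate, yielding ATP and NADH, and lactate dehydrogenase then regenerates NAD+ from the pyruvate. The pentose phosphate pathway branches off at glucose 6-phosphate: its oxidative arm makes NADPH, the reductant that glutathione recycling draws on, and its non-oxidative arm interconverts sugars with ribose 5-phosphate for nucleotide synthesis. Many tumour lines run glycolysis at a high rate in the presence of oxygen, and several of these genes are known targets of hypoxia-inducible factors and of MYC. Most steps have several isozymes, encoded by different genes with different tissue preferences.

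With 1 array per group, no test, SD or p-value between cultures exists, and each difference describes these 2 RNA samples. Each ratio is the log2 intensity in radiation-adapted cells less that in wild-type cells, after background correction and quantile normalization, so a positive ratio means higher in the radiation-adapted cells. The only measurable spread was that between different probes of 1 gene, an SD of 0.45 in the log2 ratio over 2269 genes. It does not cover variation between cultures. Where a gene has several detected probes its value is that of the probe with the highest mean log2 level over both arrays after normalization, called its main probe, and the others are given beside it. In bulk RNA, fewer cells of a kind and less RNA per cell cannot be told apart.

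Of the 27 members detected, all on both arrays, 3 passed 2-fold upward in the radiation-adapted cells (HK1, PFKFB3 and ENO2) and 5 passed it downward (PFKL, PFKFB4, ALDOC, PGK1 and TKT). The share higher was 11.1%, against 12.4% of the 11352 detected named genes, and the share lower was 18.5%, against 10.3%. Each count differed by few genes from the background share, and neither was tested. The other 19 stayed within 2-fold, and 11 of the 27 (40.7%) lay within the between-probe SD, against 46.7% of all detected genes. The members' median log2 ratio was -0.12 and that of all detected genes -0.010, with 14 members below 0 and 13 above. PFKFB2 and PDK1 were not well above background on either array, at signals of 128.3 to 133.1 units in radiation-adapted and 123.0 to 134.5 units in wild-type cells for PFKFB2, and of 132.4 and 132.3 units for PDK1.

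**Figure D1:**
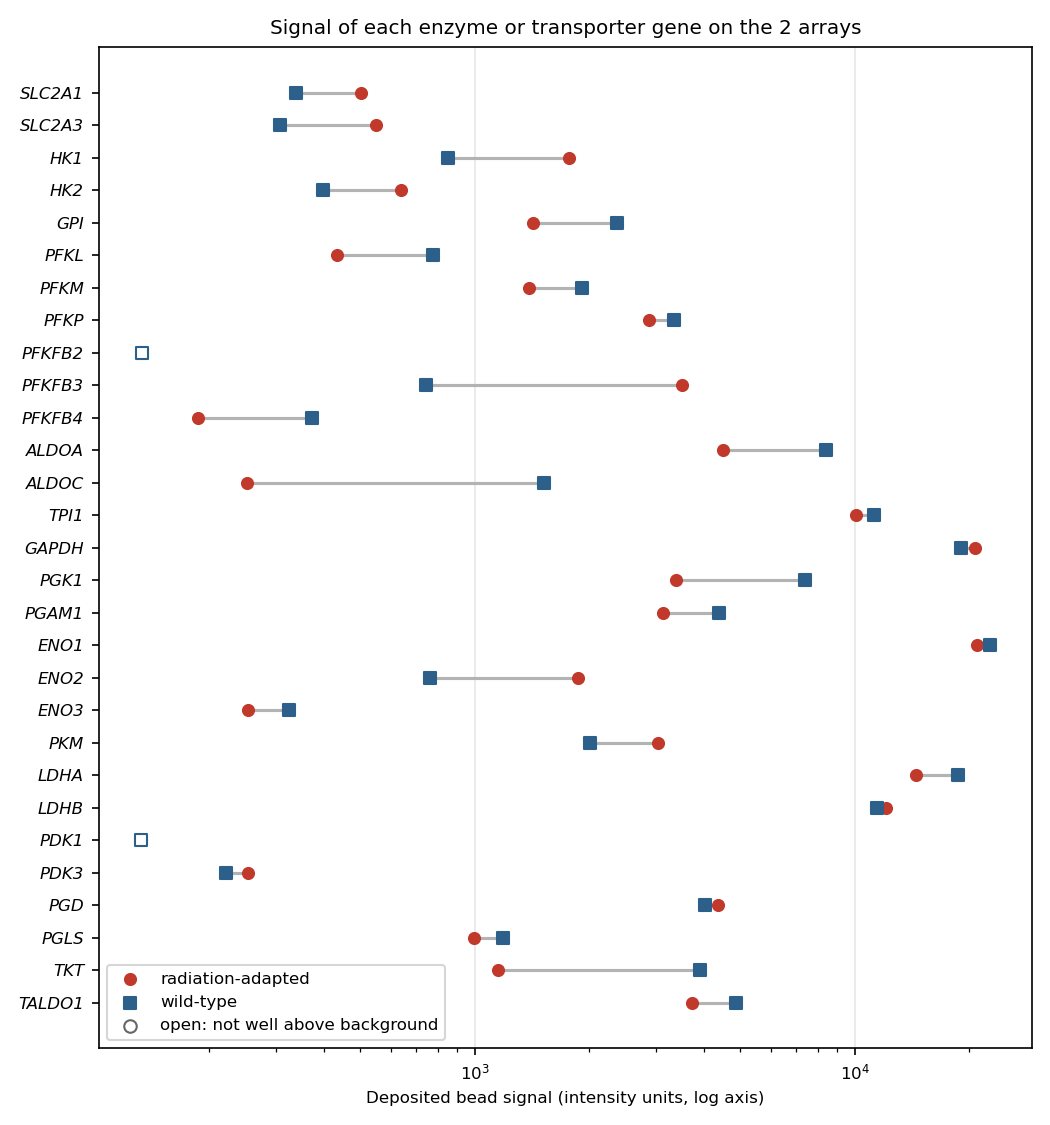
Deposited bead signal of each member on the radiation-adapted array (circles) and the wild-type array (squares), at the probe used for the gene, on a log axis and in pathway order from transporters to the pentose phosphate pathway. Open symbols mark genes not well above background. ALDOC, PFKFB3 and TKT have the widest gaps, while ENO1 and TPI1 lie close together; signals of different genes come from different probes and are not comparable with each other.

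All 4 glucose entry genes had ratios above 0, 1 of them past 2-fold. SLC2A1, which encodes the widely expressed glucose transporter GLUT1, had a signal of 501.2 units in radiation-adapted and 337.6 units in wild-type cells, a log2 ratio of 0.48. SLC2A3, the gene of the high-affinity neuronal transporter GLUT3, had signals of 548.9 and 307.4 units in the same order and a ratio of 0.86. Both genes were therefore higher on the radiation-adapted array, SLC2A1 by scarcely more than the between-probe SD.

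Hexokinase traps glucose by phosphorylating it. HK1, the isozyme found in most tissues, had 1766.2 units in radiation-adapted and 848.7 units in wild-type cells, 2.07-fold higher. Another HK1 probe was detected in radiation-adapted cells only (173.9 units, against 141.4 in wild-type cells), and its bound of at least 1.11-fold leaves the size there unmeasured. HK2, the inducible isozyme frequent in tumours, had 638.4 and 397.9 units and a ratio of 0.61, with 0.41 at its other probe. HK1 thus passed 2-fold at its main probe, and its other detected probe gives a lower bound only.

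The isomerase and phosphofructokinase genes had ratios below 0. GPI, which converts glucose 6-phosphate to fructose 6-phosphate, had 1424.5 units in radiation-adapted and 2369.7 units in wild-type cells (ratio -0.83). Phosphofructokinase catalyses the committed step, and its subunits named for liver, muscle and platelet are encoded by PFKL, PFKM and PFKP. PFKL had 434.0 units in radiation-adapted and 777.6 units in wild-type cells, 2.47-fold lower. PFKM had 1389.8 and 1914.0 units (ratio -0.57). PFKP had 2879.3 and 3344.4 units (ratio -0.18), a difference smaller than the between-probe SD. All 3 subunit genes were thus below 0, and PFKL alone passed 2-fold.

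Phosphofructokinase is driven by the allosteric activator fructose 2,6-bisphosphate, which the bifunctional PFKFB enzymes make and degrade. The 2 detected PFKFB genes differed in opposite directions. PFKFB3, whose product has a kinase activity far above its phosphatase activity, had 3504.2 units in radiation-adapted and 741.7 units in wild-type cells, 5.21-fold higher. Its other probe had 577.6 and 218.8 units and was 3.60-fold higher, so both probes passed 2-fold. PFKFB3 had the highest gene value among the members. PFKFB4 had 186.8 units in radiation-adapted cells (detection p-value 0.0013) and 372.9 units in wild-type cells, 4.52-fold lower at its single probe. Its radiation-adapted signal lay close to background, where the size of a ratio depends on the background correction: with none, the log2 ratio was -1.18 in place of -2.17.

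Aldolase splits fructose 1,6-bisphosphate into 2 triose phosphates. ALDOC, the isozyme typical of brain, had 251.0 units in radiation-adapted and 1516.8 units in wild-type cells. That is 11.8-fold lower, the lowest ratio of any member, and it came from 1 probe. With no background correction the log2 ratio of ALDOC was -2.72 in place of -3.56. ALDOA, the isozyme of muscle and most other cells, had 4494.7 and 8395.3 units at its main probe, 1.68-fold lower. At its next probe ALDOA had 3215.6 units in radiation-adapted and 8020.3 units in wild-type cells, 2.34-fold lower. Both isozyme genes were lower, ALDOC by far more, and whether ALDOA passes 2-fold depends on the probe.

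**Figure D2:**
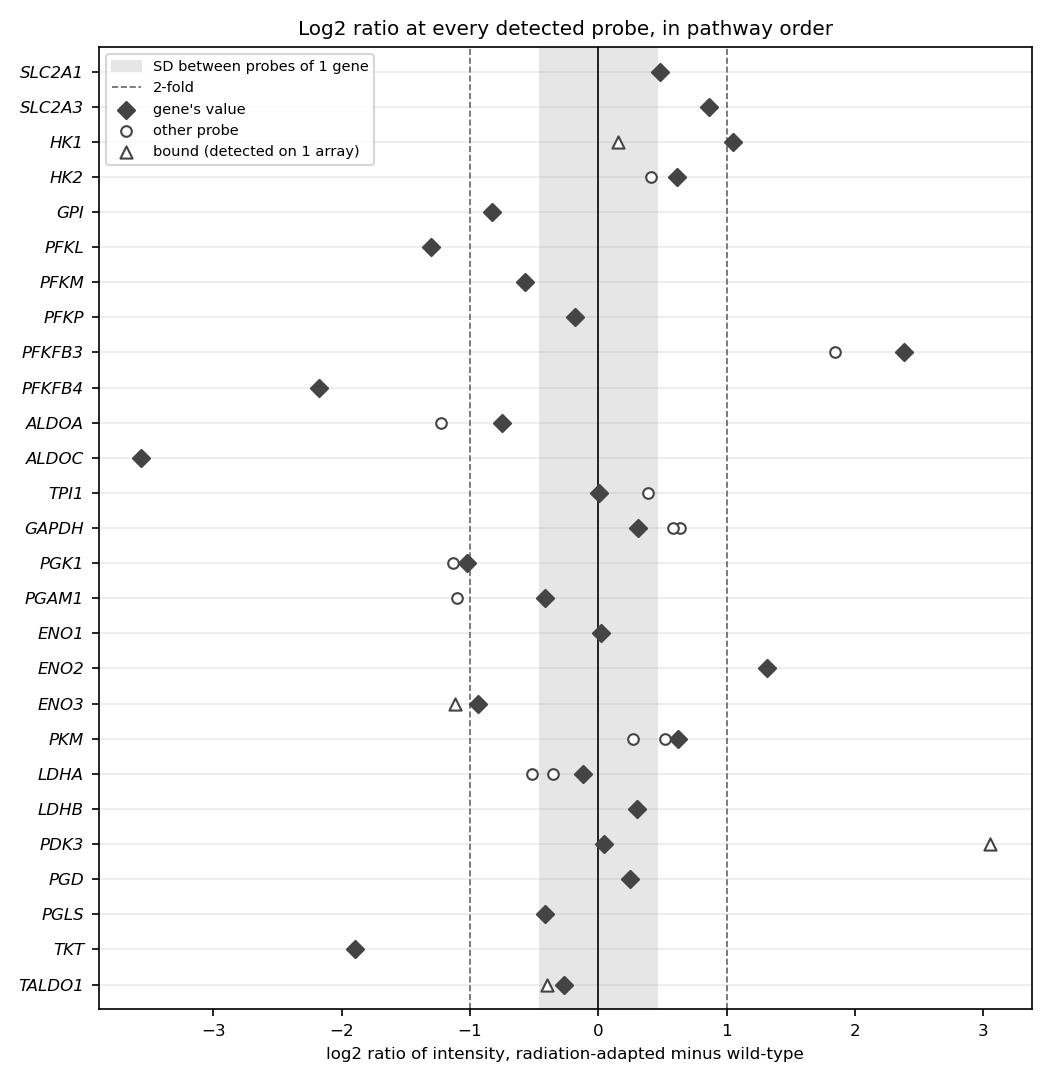
Log2 ratio of intensity, radiation-adapted minus wild-type, at every detected probe of each member in pathway order. Diamonds are the gene's value, circles its other probes and triangles bounds from probes detected on 1 array; the band is the between-probe SD of 0.45 and dashed lines mark 2-fold. PFKFB3 lies farthest to the right and ALDOC farthest to the left among the diamonds, and the probes of PDK3 lie far apart.

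The bases before the start of the PFKFB and aldolase genes are shown because these are the isozyme pairs with the widest gap between their ratios, and because the core of the hypoxia response element, ACGTG or GCGTG, was searched there on both strands. Sequences are from RefSeq (GRCh38.p14), cover 250 bases up to the annotated gene start, and have each match in capitals. They are PFKFB3 at chr10:6144671-6144920 on the + strand, PFKFB4 at chr3:48556804-48557053 on the - strand, ALDOA at chr16:30064029-30064278 on the + strand and ALDOC at chr17:28576896-28577145 on the - strand.
PFKFB3: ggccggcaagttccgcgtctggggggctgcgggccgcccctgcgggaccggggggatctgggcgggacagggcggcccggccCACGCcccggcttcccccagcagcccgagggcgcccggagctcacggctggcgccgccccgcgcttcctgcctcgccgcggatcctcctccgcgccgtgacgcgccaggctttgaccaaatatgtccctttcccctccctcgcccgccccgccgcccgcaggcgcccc
PFKFB4: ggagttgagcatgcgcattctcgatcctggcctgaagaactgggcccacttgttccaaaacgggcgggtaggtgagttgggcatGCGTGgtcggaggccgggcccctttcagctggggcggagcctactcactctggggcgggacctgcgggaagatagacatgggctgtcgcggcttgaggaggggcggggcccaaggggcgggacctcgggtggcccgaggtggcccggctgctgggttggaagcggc
ALDOA: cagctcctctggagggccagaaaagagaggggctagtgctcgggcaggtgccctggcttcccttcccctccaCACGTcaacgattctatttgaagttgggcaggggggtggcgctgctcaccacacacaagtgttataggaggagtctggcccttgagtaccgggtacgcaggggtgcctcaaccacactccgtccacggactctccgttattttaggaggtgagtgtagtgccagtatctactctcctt
ALDOC: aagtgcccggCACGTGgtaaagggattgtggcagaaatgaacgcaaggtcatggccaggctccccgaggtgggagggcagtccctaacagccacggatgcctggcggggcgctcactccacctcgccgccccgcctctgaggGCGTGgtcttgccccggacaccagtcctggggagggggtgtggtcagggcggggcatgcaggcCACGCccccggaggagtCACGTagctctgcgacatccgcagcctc

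PFKFB3, PFKFB4 and ALDOA held 1 match each and ALDOC held 5, of which 2 overlap in a single CACGTG. Over the 28 members with a sequence in the table, 15 held at least 1 match (53.6%), against 58.1% of 9102 detected genes and 43.2% of all 35116 windows of that length. The 28 include PDK1, which was not detected, and SLC16A3, which had no named probe, each with 0 matches. PFKL and PGK1, both lower, held 1 and 3 matches, while HK1 and TKT held 0. The match therefore occurred among members with high and with low ratios, at about the share of other detected genes. The annotated start need not be the start used in these cells, and no binding was measured.

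The triose steps followed. TPI1, which interconverts the triose phosphates, had 10096.8 units in radiation-adapted and 11255.2 units in wild-type cells (ratio 0.0071 after normalization, 0.39 at its other probe). GAPDH, which oxidizes glyceraldehyde 3-phosphate and yields NADH, had 20712.8 and 18976.6 units at its main probe (ratio 0.31), and 0.58 and 0.64 at its other probes. At its main probe GAPDH came nearer than TPI1 to the highest signal on either array (27456.9 units in radiation-adapted and 29880.1 in wild-type cells). Ratios may be compressed there, and the same holds for ENO1 and for the main probe of LDHA below. With median scaling TPI1 turned to -0.23, while GAPDH came to 0.057 and stayed above 0 under all 9 alternatives.

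PGK1 and PGAM1 were lower. PGK1, the first enzyme of glycolysis to make ATP, had 3379.1 units in radiation-adapted and 7389.8 units in wild-type cells, 2.03-fold lower, and its other probe was 2.19-fold lower. PGAM1, which moves the phosphate group of phosphoglycerate, had 3122.1 and 4384.8 units, 1.33-fold lower, and its other probe had 1133.5 and 2179.3 units, 2.14-fold lower. The PGK1 probes gave the same side of 2-fold and those of PGAM1 did not. PGAM4, a gene closely related to PGAM1, had 4 probes assigned to it with ratios from -0.27 to -0.56 at those detected on both arrays, and none of the probe sequences was checked for sharing between the pair.

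The enolases, which make phosphoenolpyruvate, were split by isozyme. ENO1, the isozyme of most tissues, had 20947.3 units in radiation-adapted and 22628.0 units in wild-type cells, with a ratio of 0.021 that became -0.18 with median scaling. ENO2, the neuronal isozyme, had 1872.9 and 762.3 units, 2.48-fold higher. ENO3, the muscle isozyme, had 252.6 units in radiation-adapted and 323.6 units in wild-type cells, 1.91-fold lower. Its other probe was detected in wild-type cells only (at least 2.17-fold lower). With no background correction the log2 ratio of ENO3 was -0.56 in place of -0.94. The neuronal isozyme gene was thus higher for enolase and, for aldolase, the brain isozyme gene ALDOC was lower.

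PKM encodes the pyruvate kinase of most non-liver cells. It had 3039.1 units in radiation-adapted and 2012.7 units in wild-type cells (ratio 0.62), and its other probes had ratios of 0.52 and 0.27, so all 3 were above 0 and none passed 2-fold. The lactate dehydrogenase genes differed by less than the between-probe SD at their main probes. LDHA, the subunit that favours lactate production, had 14467.1 units in radiation-adapted and 18676.6 units in wild-type cells (ratio -0.12), with -0.52 and -0.35 at the other probes. LDHB, the heart-type subunit, had 12113.6 and 11463.1 units (ratio 0.30).

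Pyruvate dehydrogenase kinases inhibit the complex that turns pyruvate into acetyl-CoA for the citric acid cycle. The 2 probes of PDK3 gave different ratios, and which of them counts as brighter depends on the scale. The main probe, ahead only slightly in mean log2 level, had 252.8 units in radiation-adapted and 220.8 units in wild-type cells (ratio 0.042). The other, brighter on the linear scale and assigned to a cDNA record and not to a RefSeq transcript, had 551.7 units in radiation-adapted cells and 144.2 in wild-type cells, where its detection p-value was 0.0948. Its ratio came to a bound of at least 8.27-fold, higher in radiation-adapted cells. Which of the PDK3 transcripts each probe reads was not determined, and the gene's value passed 2-fold under 3 of the 9 alternatives, up to a ratio of 2.40 with an offset of 50.

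In the oxidative arm of the pentose phosphate pathway the members lay within the between-probe SD. PGLS, the lactonase gene, had 994.9 units in radiation-adapted and 1183.4 units in wild-type cells (ratio -0.42). PGD, which releases the pathway's second NADPH, had 4354.6 and 4028.3 units (ratio 0.25). In the non-oxidative arm, TKT, which encodes transketolase, had 1152.3 units in radiation-adapted and 3920.9 units in wild-type cells, 3.73-fold lower at its single probe. TALDO1, the transaldolase gene that works beside it, had 3734.1 and 4872.3 units (ratio -0.26), and a dim second probe was detected in wild-type cells only (at least 1.32-fold lower). The transketolase gene alone of these 4 passed 2-fold.

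Several detected probes were available for 13 members, and in all 13 the probes lay on the same side of 0 after normalization. In 5 of them (ALDOA, ENO3, HK1, PDK3 and PGAM1) some probes passed 2-fold and others did not, or in HK1 gave only a lower bound. Many of these genes have processed pseudogenes or close paralogues, and shared probe sequence was not checked.

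The scaling shifted the general level of the ratios. Without scaling between arrays the median of all detected genes was 0.23, with median scaling 0.16, and the share of higher genes among all those past 2-fold was 71.7% and 67.0%, against 54.6% after quantile normalization. For the members these shares were 44.4%, 44.4% and 37.5%. Taken relative to the median of all genes, 2 members passed 2-fold upward and 7 downward under either setting. TPI1 and ENO1 changed sign under both, and relative to that median GAPDH, LDHB and PGD did as well. PFKFB3 (ratios from 2.11 to 2.44), ENO2 (1.18 to 1.44), TKT (-1.95 to -1.78), ALDOC (-3.79 to -2.72), PFKFB4 (-2.50 to -1.18), PFKL (-1.36 to -1.04) and PGK1 (-1.23 to -1.001) stayed past 2-fold under all 9 alternatives. HK1 ranged from 0.60 to 1.17 and did not.

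**Figure D3:**
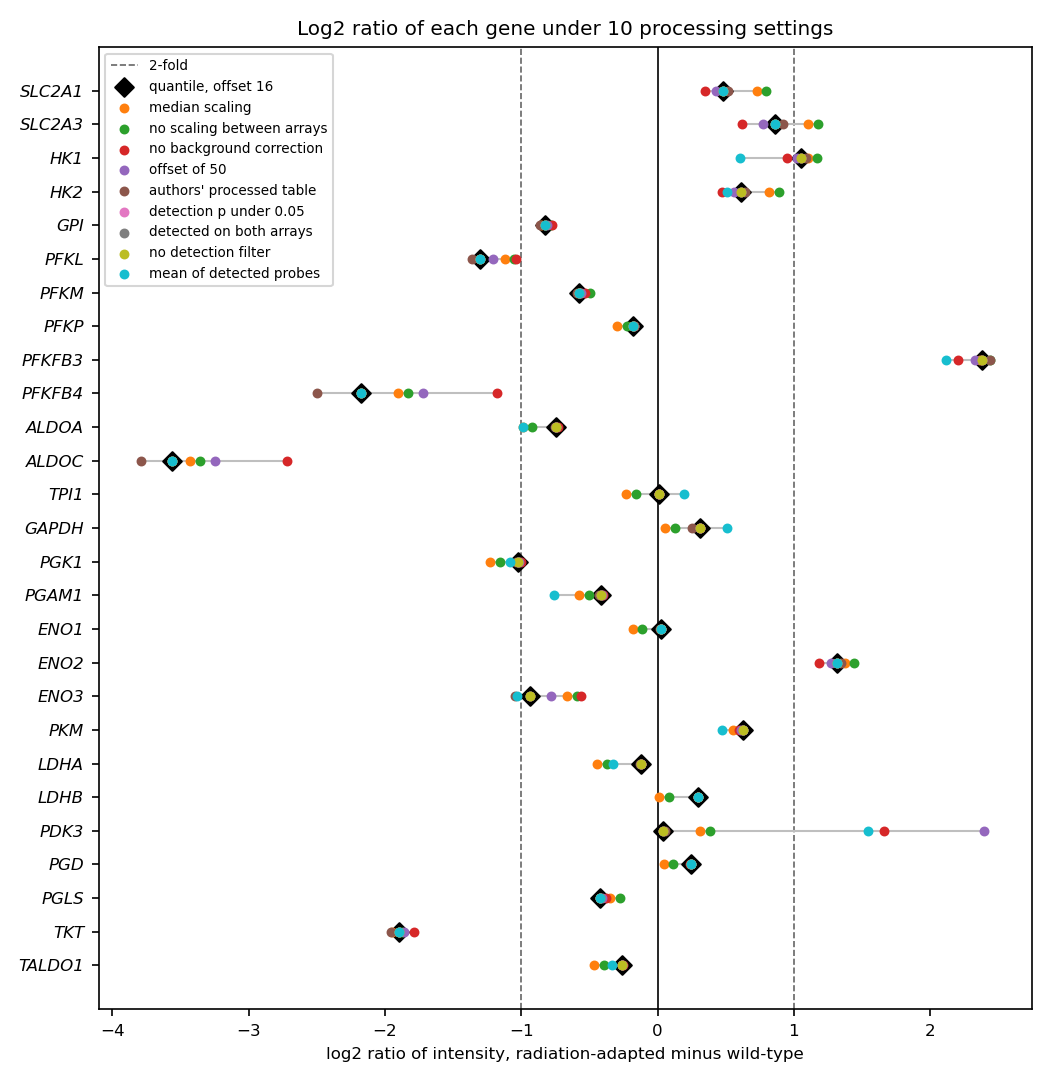
Log2 ratio of each detected member (radiation-adapted less wild-type) under the quantile-normalized values (diamonds) and 9 alternative settings (coloured points), with grey lines from lowest to highest. PFKFB3, ENO2, TKT and ALDOC keep to one side of the dashed 2-fold lines, PDK3 spans from 0.042 to 2.40, and TPI1 and ENO1 cross 0.

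Each member was then set beside its chromosomal neighbours, the 10 nearest detected genes on either side in RefSeq order, less any that were members. The sign of the ratio matched that of the neighbours' median for 21 of 27 members (77.8%), against 59.7% of 11334 genes placed. This comparison was chosen after the values were seen, and the difference between the shares was not tested. Members that lie near each other, such as TPI1 and ENO2, share neighbours, so their matches are not independent. The neighbours of PFKFB4 on chromosome 3 had a median of -0.999, with 17 of 20 below 0, outside the central 95% of such medians over all genes (-0.72 to 0.69). The ratio of PFKFB4 less that median was -1.18. TKT, also on chromosome 3, had neighbours at -0.13 and stood 1.77 below them on the log2 scale.

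GAPDH and TPI1 lie on chromosome 12 among genes with medians of 0.73 and 0.69, and both stood below their neighbours (ratio less median -0.42 and -0.68). ENO2, on the same chromosome, had neighbours at 0.31 and a difference of 1.01. TPI1 and ENO2 lie close together and their sets of neighbours overlap, yet the medians of these sets were 0.69 and 0.31. The difference of ENO2, barely past 2-fold, therefore depends on which genes are counted as its neighbours. PFKFB3, on chromosome 10, differed from neighbours at 0.39 by 1.99, and ALDOC, on chromosome 17, from neighbours at -0.44 by -3.13. PFKL on chromosome 21 differed by -1.06. HK1 on chromosome 10 (0.87) and PGK1 on the X chromosome (-0.81) fell short of 2-fold once their neighbours were subtracted, which left 2 members higher and 4 lower.

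**Figure D4:**
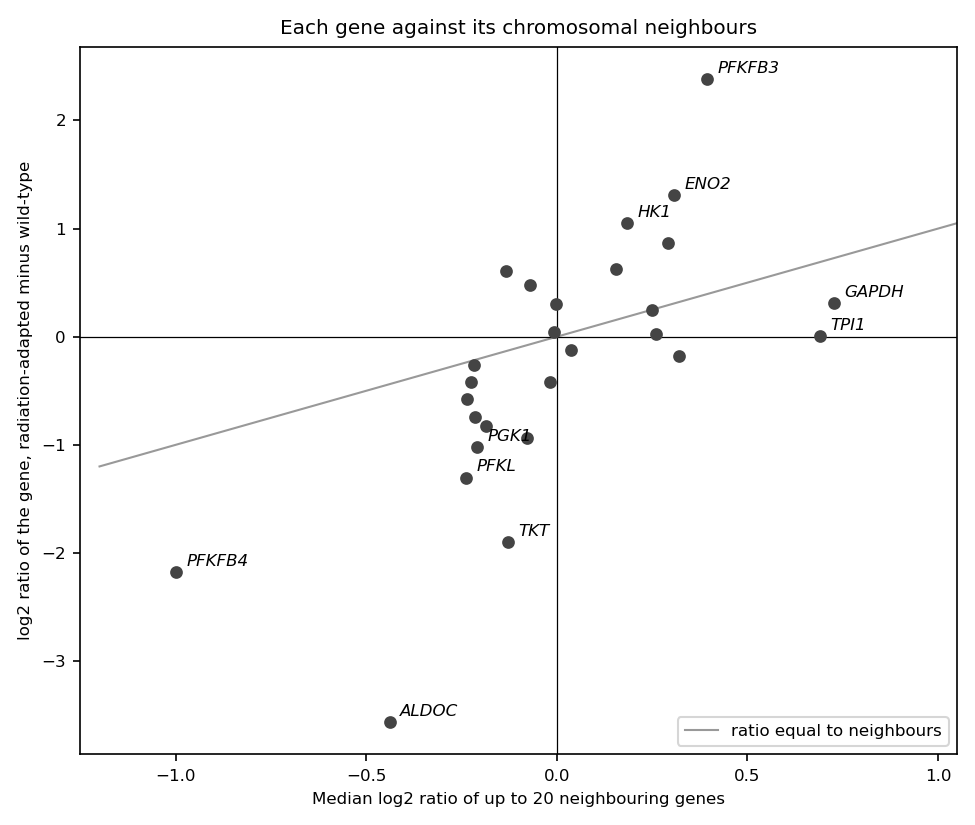
Log2 ratio of each detected member (vertical axis) against the median log2 ratio of up to 20 neighbouring genes on its chromosome (horizontal axis); the line marks equality. PFKFB4 has the lowest neighbours (-0.999) and GAPDH the highest (0.73), while PFKFB3, ALDOC and TKT lie far from the line.

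Further genes of the pathway were taken from a list of 71, of which 65 had a named probe and 37 were detected. Of these, 1 passed 2-fold upward in radiation-adapted cells (2.70%, against 12.4% of all detected genes) and 5 downward (13.5%, against 10.3%), with a median log2 ratio of 0.089. Among 9 detected genes of gluconeogenesis and glycogen metabolism 4 were at least 2-fold lower and 0 higher, and of the 4 only PCK2 stayed past 2-fold with no scaling or with no background correction. PCK2, the mitochondrial enzyme that makes phosphoenolpyruvate from oxaloacetate, had 485.9 units in radiation-adapted and 4317.3 units in wild-type cells (log2 ratio -3.59, and -3.53 at its other probe detected on both arrays). A further probe detected in wild-type cells only had a bound on the same side of 0.

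The glycogen phosphorylase genes PYGL and PYGB had 366.9 and 478.5 units in radiation-adapted cells, against 607.0 and 730.0 units in wild-type cells, 2.36-fold and 2.01-fold lower. GBE1, the glycogen branching enzyme gene, had 189.1 and 251.1 units, 2.31-fold lower. PGM1, which links glycogen to glucose 6-phosphate, went the other way at 0.81, within 2-fold. All 3 had ratios below 0 under all 9 alternatives, but their place past 2-fold depended on the setting, with ratios reaching -0.93 for PYGL, -0.76 for PYGB and -0.57 for GBE1.

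Among 7 detected control genes, TXNIP, which restrains glucose uptake, had 880.2 units in radiation-adapted and 1989.4 units in wild-type cells, 2.64-fold lower. MYCN, a transcription factor gene of the MYC family, had 595.9 and 210.2 units, 4.08-fold higher, and its other probe, detected in radiation-adapted cells only, had a bound of 1.35-fold. MYC had a ratio of -0.18, and -0.62 at its other probe. HIF1A, the gene of the hypoxia-inducible subunit, had 302.4 to 304.8 units at its brighter probes in radiation-adapted cells, against 193.7 to 195.8 units in wild-type cells, and all 3 of its probes lay between 0.76 and 0.92, short of 2-fold. EPAS1, detected in radiation-adapted cells only, was at least 1.35-fold higher there. TIGAR, which lowers fructose 2,6-bisphosphate, stood at 0.70.

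In the remaining lists no gene had a measured ratio or a bound past 2-fold, though SLC2A6 (at least 1.80-fold higher) and PDK2 (at least 1.16-fold higher) have bounds only and may differ by more. The 8 detected genes of pyruvate entry and the pyruvate dehydrogenase complex had a median of -0.31, from PDHA1 at -0.72 to MPC1 at 0.18. The 3 detected carriers, BSG, SLC2A6 and SLC2A8, lay between 0.52 and 0.85, the highest of these being a bound. The 5 other detected pentose phosphate genes ran from -0.40, a bound at RBKS, to 0.75 at SHPK, the sedoheptulose kinase gene. The 5 other detected glycolytic isoforms ran from -0.33 at BPGM to 0.66 at ADPGK.

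**Figure D5:**
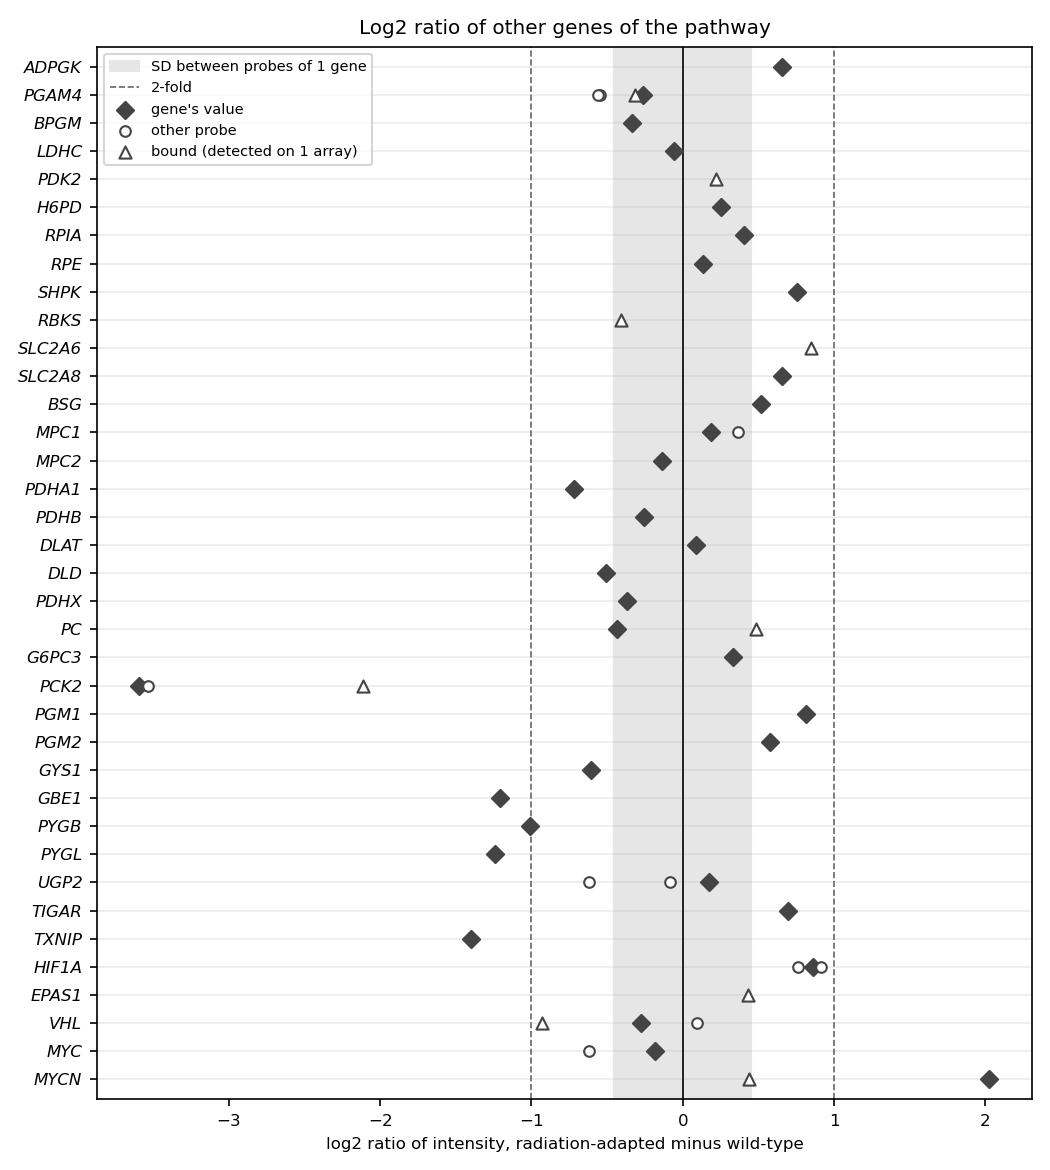
Log2 ratio (radiation-adapted less wild-type) at every detected probe of 37 further genes of the pathway, with symbols, band and dashed lines as in the plot of the members' probes. PCK2 lies at -3.59 and MYCN at 2.03, and PYGL, GBE1, PYGB and TXNIP lie past the lower 2-fold line.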

How the data were processed

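The authors deposited an unprocessed table with, for each of 47323 probes and 2 arrays, a linear bead intensity without background subtraction or scaling, and a detection p-value against the negative controls, per the file headers and the values themselves. A processed intensity table, which the authors deposited too, was used as an alternative; its sorted columns differed by at most 0.2 units and reached -28.6. The software behind both tables is not given in the sources used.

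Intensities were corrected and quantile-normalized with limma 3.58.1 (neqc, offset 16, R 4.3.3). The offset shrinks ratios of dim probes, whereas the background correction gave larger ratios for PFKFB4, ALDOC, ENO3 and GBE1 than no correction did. The step was tested on simulated data in which only probes well above background were changed and scored, so that test does not cover dim probes. Probe genes came from the platform annotation (30113 probes with 1 gene, 8 with several, left out, and 17202 unnamed). All 27 detected members matched RefSeq gene numbers. A gene took its detected probe with the highest mean log2 level over both arrays, before any bound. Where 1 array lacked detection, its value there was raised to the lowest detected level of that array if below it (log2 5.36 radiation-adapted, 5.60 wild-type), giving "at least". A bound of the opposite sign gives no fold but stays in medians. Past 2-fold means a log2 ratio of at least 1 either way.

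All members are named, and of the other pathway genes those past 2-fold, with some added to show a list's range. The members and lists were chosen with earlier results of these data known. No test was possible, and the number of arrays limits the precision.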

Additional observations from a re-analysis of the deposited data

How the results depend on the processing

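With 9 alternatives and the subtraction of neighbours, added after seeing the data, the members at least 2-fold higher numbered 2 to 4 and those lower 4 to 6. Their median moved from -0.12 to -0.29 with median scaling, -0.22 with no scaling and -0.24 relative to neighbours, and stayed within 0.1 of it otherwise. Of the members' single values, 8 of 270 moved by more than the between-probe SD, among them ALDOC with no background correction and PDK3 under 3 settings, and no value past 2-fold changed sign. For the other pathway genes, the count higher was 1, against 3 with median scaling, 4 with no scaling, 2 in the authors' processed table, 2 at a detection p-value under 0.05 and 4 with no detection filter. Their count lower was 5, against 3 with median scaling, 2 with no scaling, 2 with no background correction and 3 with an offset of 50. Their median of 0.089 became 0.23 with median scaling, 0.30 with no scaling, -0.063 at the looser detection limit, -0.060 with detection on both arrays, and -0.022 relative to neighbours. GBE1, PYGB and PYGL account for lost calls among the lower genes. The cause of these shifts was not tested. No paired analysis was possible because each group had 1 sample. Signal over background limits the dim probes of PFKFB4, PDK3, ENO3 and GBE1, and that of ALDOC in radiation-adapted cells.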

Other observations

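GAPDH is often used to scale expression measurements, so it was set beside other genes used for that purpose, from a list of 11 chosen after the values were seen. Of these, 9 were detected, 4 with a log2 ratio (radiation-adapted less wild-type) above 0 and 5 below. ACTB and YWHAZ had ratios of -0.074 and -0.047, GAPDH had 0.31, and the ends were TFRC at 1.07 and PPIA at -0.85. Of the 9, 4 lay within the between-probe SD of 0.45.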
